A study of Homo sapiens with 6 samples.

Results

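The SWI/SNF (BAF) complexes were followed through the probes of 30 genes that encode their subunits, on arrays of RH36 cells that had received pre-miR-27a or the negative pre-control. A probe was included when the gene name column of the array held 1 of the 30 symbols, and older names of these genes were not matched. All 30 genes were found, with 56 of the 41000 probes on the array, and 53 of these probes, with at least 1 for every gene, passed the filter that left 36469 probes in all. RH36 is an established cell line of embryonal rhabdomyosarcoma (ERMS), a tumour of the skeletal muscle lineage, and is negative for the PAX3/FOXO1 translocation. Both groups (n = 3 arrays each, labelled as biological replicates) were transient transfections of the same line, 1 with the miR-27a precursor and the other with a control precursor, so neither group was untransfected. The protocol in the labels gives 10 nM and 24 hours, the labels of the pre-miR-27a arrays give 48 hours, and the published methods give another concentration and another reagent. Which applies to these arrays was not settled, and the level of miR-27a itself was not analysed here.

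SWI/SNF complexes slide and evict nucleosomes with the energy of ATP, which opens promoters and enhancers to transcription factors. One ATPase, SMARCA2 or SMARCA4, joins a core that is largely shared between assemblies, and additional subunits set the assembly apart as canonical BAF (cBAF), polybromo-associated BAF (PBAF) or non-canonical BAF (ncBAF). In skeletal muscle the complexes work with MYOD1 at muscle genes, and loss of SMARCB1 defines rhabdoid tumours. A microRNA pairs through its seed with sites in mRNAs and lowers the level or translation of its targets, so a precursor can change mRNAs directly or through other genes.

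The mature microRNA made from the transfected precursor is shown because its seed, bases 2 to 8 in capitals, is the stretch that pairs with target mRNAs. It is encoded on the minus strand at chr19:13836447-13836467 (RefSeq, GRCh38.p14), and the matching mRNA stretch reads ACUGUGA. Target sites in the subunit mRNAs were not counted here.
hsa-miR-27a-3p: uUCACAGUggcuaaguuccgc

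Slide 1 held the pre-control group and slide 2 the pre-miR-27a group, and in every value that follows the slide and the precursor cannot be told apart. Between 69.9% and 73.9% of spots were well above background on pre-control arrays and between 74.1% and 78% on pre-miR-27a arrays. The 8 spike-in controls well above background were all higher on slide 2, by 0.05 to 0.42 (log2). Spots flagged as not found numbered 1559 to 1750 per array on slide 1 and 3487 to 4153 on slide 2. The filter counts such spots as missing, so it met more missing values on slide 2. Background around the spots, as a median per array, lay between 74.5 and 76 on slide 1 and between 52.5 and 53 on slide 2. Of 8 markers of the muscle lineage, 7 were well above background on every array, and MYF5, an early myogenic factor, was so on none. The defining markers of other cell types, EPCAM and CDH1 (epithelium), PTPRC (blood) and PECAM1 (endothelium), were well above background on no array, whereas KRT8, KRT18, CD3E, CD68 and VWF of the same lists were so on all 6 with at least 1 probe. The 5 epithelial markers summed to 2642 to 2823 signal units on pre-control arrays and to 2342 to 2578 on pre-miR-27a arrays, most of it from keratins, of which 1 KRT8 probe was called lower (−0.70) and 3 KRT18 probes higher (0.51 to 0.78), and the 4 blood markers to 296 to 363 and 233 to 264. The muscle factors MYOG (−0.95 and −0.96) and MYOD1 (−0.45) and the cadherin CDH15 (−0.35) were called lower only in a fit that pairs the arrays by replicate number. Of the same list, 1 CHRNA1 probe was called higher in both fits (0.95), and the other CHRNA1 probe was at −0.15, not called. MYF6 (−0.14), DES (−0.01) and MYH3 (0.09) were called in neither fit. The part of these markers in the results was not tested.

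The subunit genes as a group stayed close to the array as a whole. Values are log2 signals after quantile normalization, and a fold change is the mean of pre-miR-27a arrays minus the mean of pre-control arrays on that scale. The median fold change of the 53 probes was 0.02, against −0.02 for all probes, and the median size was 0.18, against 0.21. 36 of the 53 probes (67.9%) lay within 0.25 of 0, against 56% of all probes. Fold changes were above 0 for 31 subunit probes, where 46.4% of all probes were, and below 0 for 22, and they ranged from −0.60 to 1.29.

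With limma and an adjusted p under 0.05, 4 of the 53 probes (7.55%) were called, against 7.83% of all probes tested, so the share of subunit probes was that of the array. 2 were higher in pre-miR-27a arrays, for SMARCC1 and SS18, and 2 were lower, for ARID1B and SMARCD1, where 3.95% and 3.88% of all probes were called in these directions. An unadjusted p under 0.05 was found for 13 subunit probes (24.5%, against 24.8% of all). The groups did not overlap for 20 of the 53 (37.7%), against 32.5% of all probes. Of the 20, 12 were all higher and 8 all lower, where 14.8% and 17.8% of all probes were. RNA was taken from whole cultures, so fewer cells of a kind and less RNA per cell cannot be told apart in these values.

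Arrays with the same replicate number deviated together, and a fit with the replicate number as a block called 10 subunit probes of 10 genes (18.9%), against 14.9% of all probes. 5 were higher and 5 lower, where the block called 7.24% and 7.62% of all probes. The 4 probes above were among them, and SMARCA4, SMARCC2, DPF1, ACTL6B, BCL7A and DPF2 were added. Arrays were also left out 1 at a time in the fit without the block, where 4 probes had been called. Every call but 1 ended: the SMARCC1 probe kept its call without pre-control replicate 1 (adjusted p = 0.0424, limma) and lost it in the other 5 omissions. The omissions were not repeated with the block. The fold changes stayed near their values, at 1.23 to 1.36 for SMARCC1, 0.35 to 0.42 for SS18, −0.68 to −0.55 for ARID1B and −0.55 to −0.45 for SMARCD1. The same omissions left from 0 to 1276 called probes on the whole array, and 8 to 14 subunit probes with an unadjusted p under 0.05. With scaling to the 75th percentile, 39.2% of all called probes were higher, against 50.4% after quantile normalization, and the median of all probes was −0.09.

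**Figure D1:**
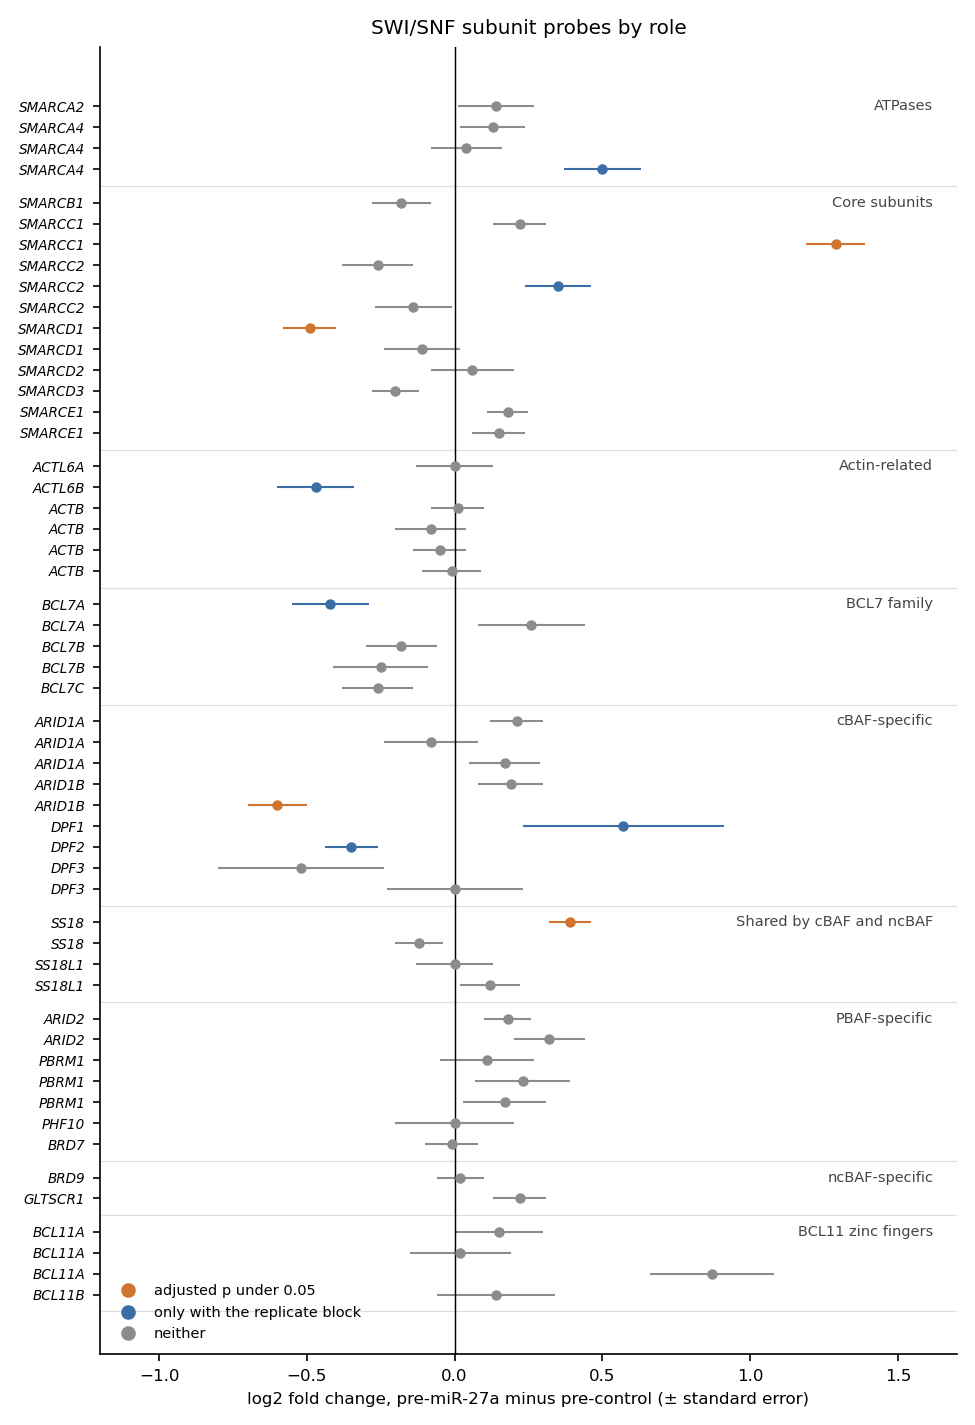
Log2 fold change (horizontal axis, pre-miR-27a minus pre-control, bars ± standard error) of the 53 subunit probes that passed the filter, 1 row for each probe, grouped by the role of the gene. Orange marks the 4 probes with an adjusted p under 0.05 without the block and blue those called only with the replicate block; most others lie close to 0, and probes of 1 gene often lie apart.

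**Figure D2:**
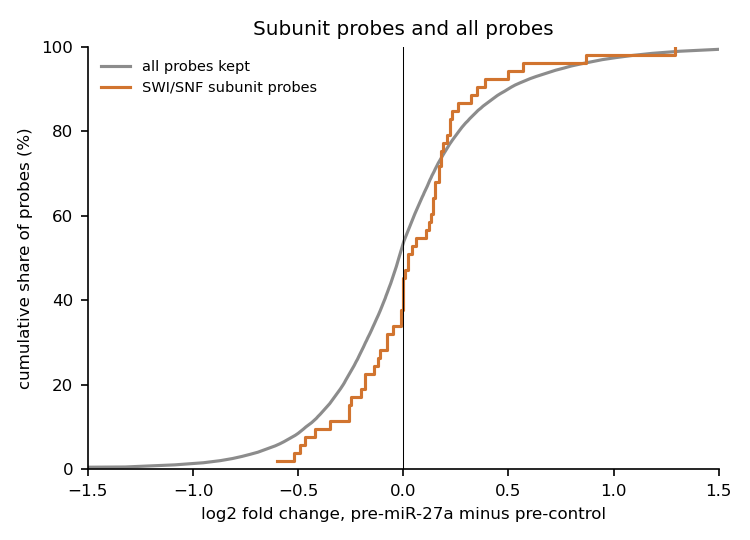
Cumulative share of probes (vertical axis, %) by log2 fold change (horizontal axis, pre-miR-27a minus pre-control) for the 53 subunit probes (orange) and all 36469 probes kept (grey). The curve of the subunits rises more steeply near 0, as 67.9% of their probes and 56% of all probes lie within 0.25 of 0.

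The ATPases hydrolyse ATP and move the DNA along the nucleosome. SMARCA4 (BRG1) was measured by 3 probes. The probe nearest the start of the gene, A_24_P212851 at chr19:10999475-10999534 (plus strand, hg18, as are all probe positions here), read 12.11, 11.72 and 11.98 on pre-control arrays 1 to 3 and 12.51, 12.31 and 12.49 on pre-miR-27a arrays 1 to 3. All 3 pre-miR-27a arrays were higher. The fold change was 0.50 (SE 0.13), or 1.42-fold, and it passed the threshold with the block (adjusted p = 0.0363, limma) but not without it (0.0783), where normexp background correction gave 0.48 and an adjusted p of 0.0438. The probe nearest the end of the gene, A_23_P39034, read 16.26, 15.95 and 16.23 against 16.28, 16.24 and 16.31, and the third probe, A_23_P39040, read 14.70, 14.43 and 14.71 against 14.77, 14.52 and 14.66. The groups overlapped on these 2 probes, whose fold changes of 0.13 and 0.04 (adjusted p = 0.535 and 0.887) turned to −0.07 and −0.09 with scaling to the 75th percentile. The SMARCA4 difference was thus found on the upstream probe and not on the other 2.

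SMARCA2 (BRM), the ATPase that can take the place of SMARCA4, had 1 probe that passed the filter. A_23_P60354 read 8.83, 8.46 and 8.51 on pre-control arrays and 8.84, 8.75 and 8.63 on pre-miR-27a arrays, and these overlapped (fold change 0.14, SE 0.13, adjusted p = 0.56). The other SMARCA2 probe, A_23_P252764, was removed because its spot was flagged as not found on 2 of 3 pre-control arrays and 1 of 3 pre-miR-27a arrays, although its signal was well above background on all 6. Unfiltered, it read 6.96, 6.69 and 6.68 against 7.96, 7.98 and 7.70. All pre-miR-27a arrays were higher, by 1.10 (SE 0.13, adjusted p = 0.0191 without the filter on dim probes), and the call depends on that filter. It lies at chr9:2151718-2151777, upstream of the probe that was kept. 1 further probe, AY295762 in the files, is described as part of SMARCA2 but lies on the opposite strand, and it was left out (fold change −0.12, adjusted p = 0.844, well above background on 1 array).

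The core subunits hold the complexes together. SMARCC1 (BAF155) and SMARCC2 (BAF170) form the scaffold on which the other core members assemble. The SMARCC1 probe A_32_P112104, at chr3:47691985-47692044 on the minus strand, read 9.70, 9.53 and 9.59 on pre-control arrays and 11.04, 10.90 and 10.77 on pre-miR-27a arrays. Every pre-miR-27a array lay above every pre-control array by more than the spread within either group. The fold change of 1.29 (SE 0.10, adjusted p = 0.0176), or 2.45-fold, was the largest among the 53 kept subunit probes. The other SMARCC1 probe, A_23_P83453, lies 88758 bases downstream and read 12.52, 12.53 and 12.73 against 12.82, 12.81 and 12.81. Its arrays did not overlap either, but its fold change was 0.22 (SE 0.09, adjusted p = 0.195).

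SMARCC2 went in different directions on its 3 probes. The downstream probe A_23_P128073 read 13.33, 13.19 and 13.15 on pre-control arrays and 13.73, 13.57 and 13.41 on pre-miR-27a arrays. All pre-miR-27a arrays were higher, by 0.35 (SE 0.11), with an adjusted p of 0.131, and of 0.0478 with the block. The probe A_24_P129813, 1345 bases upstream, read 15.75, 15.65 and 15.45 against 15.52, 15.22 and 15.32, and the probe A_23_P116682 read 8.04, 7.98 and 7.92 against 7.95, 7.97 and 7.59. Both were lower on average, by −0.26 (adjusted p = 0.262) and −0.14 (adjusted p = 0.547), and neither passed the threshold with the block.

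SMARCD1 (BAF60A), which links the complexes to transcription factors, was the core subunit with a probe called lower. A_24_P232696, at chr12:48780542-48780601 on the plus strand, read 11.76, 11.67 and 11.63 on pre-control arrays and 11.31, 11.13 and 11.15 on pre-miR-27a arrays. No pre-miR-27a array reached a pre-control array, and the fold change was −0.49 (SE 0.09, adjusted p = 0.035), a ratio of 0.712. The upstream SMARCD1 probe A_23_P204745 read 6.99, 6.91 and 6.65 against 6.72, 6.89 and 6.61, and the groups overlapped (fold change −0.11, adjusted p = 0.66). SMARCD2 and SMARCD3, the paralogues that occupy the same position, had fold changes of 0.06 (adjusted p = 0.828) and −0.20 (adjusted p = 0.19). SMARCD3 (BAF60C) is the paralogue known from heart and skeletal muscle. Its pre-control arrays read 14.74, 14.77 and 14.84 and its pre-miR-27a arrays 14.54, 14.54 and 14.67, without overlap.

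SMARCB1 (INI1, SNF5), the core subunit lost in rhabdoid tumours, read 11.67, 11.79 and 11.71 on pre-control arrays and 11.38, 11.66 and 11.58 on pre-miR-27a arrays. Every pre-miR-27a array was lower, yet the fold change of −0.18 (SE 0.10) missed the threshold (adjusted p = 0.343). SMARCE1 (BAF57), which carries an HMG domain that binds DNA, was 0.18 and 0.15 higher on its 2 probes (adjusted p = 0.205 and 0.398), with no overlap between groups on either. In all, 8 of the 12 core probes had groups that did not overlap, 5 all higher and 3 all lower, where 32.5% of all probes did not, and 2 of the 12 were called, where 7.83% of all probes were. With 12 probes nothing is read from these shares.

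**Figure D3:**
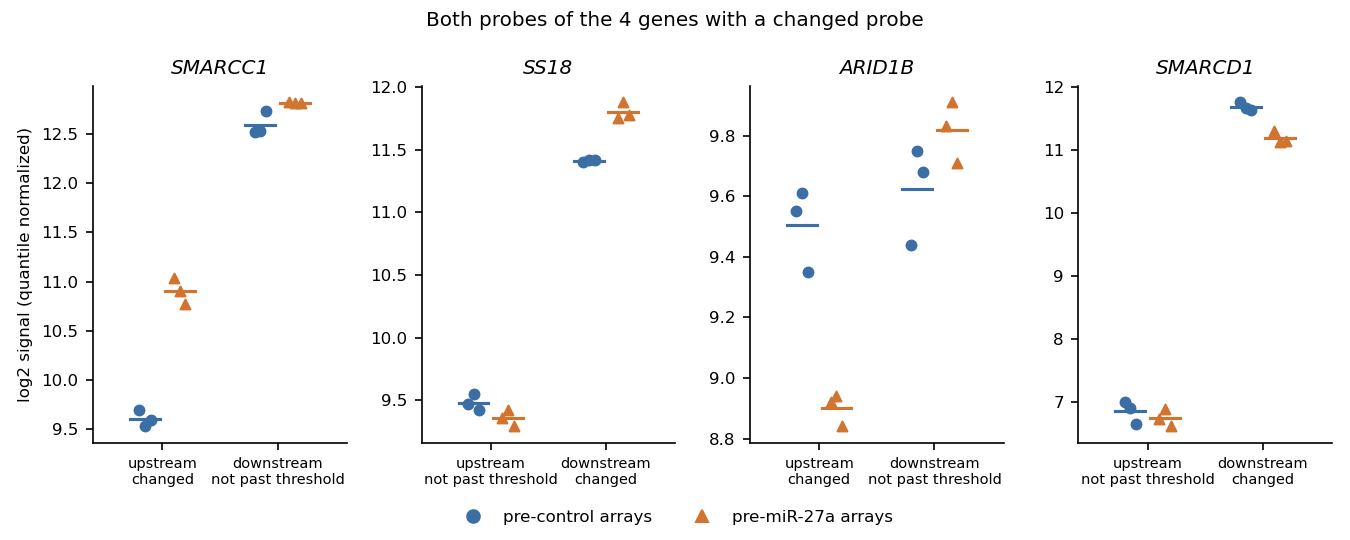
Log2 signal (vertical axis, quantile normalized, own scale in each panel) on each pre-control (blue circles) and pre-miR-27a (orange triangles) array for both probes of SMARCC1, SS18, ARID1B and SMARCD1, with the group mean as a line. On the called probe of each gene the groups are apart, and on its other probe they overlap or lie closer; levels of different probes are not comparable.

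Actin and the actin-related proteins form the module that couples the ATPase to the rest of the complex. ACTB, which is also the cytoskeletal beta-actin, had 4 probes with fold changes from −0.08 to 0.01, and none was called. ACTL6A (BAF53A), the actin-related subunit of dividing cells, read 13.37, 13.63 and 13.24 against 13.37, 13.55 and 13.32, and its fold change was 0.00 (SE 0.13, adjusted p = 1). ACTL6B (BAF53B), the paralogue that takes its place in neurons, read 5.78, 5.91 and 5.59 on pre-control arrays and 5.33, 5.44 and 5.10 on pre-miR-27a arrays. Its pre-miR-27a arrays were all lower, and the fold change of −0.47 (SE 0.13, or 0.05 with the block) passed the threshold with the block (adjusted p = 0.0336) and not without it (0.0926). Without the block ACTL6B was called with scaling to the 75th percentile (−0.55, adjusted p = 0.0342), whereas after normexp background correction its fold change was −0.01 (adjusted p = 0.962).

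The BCL7 proteins are small accessory subunits found in all 3 assemblies. BCL7A, first known from a translocation in lymphoma, read 12.25, 12.05 and 11.93 on pre-control arrays and 11.84, 11.65 and 11.47 on pre-miR-27a arrays with the probe A_24_P203056. No array of the groups overlapped, and the lowest pre-control array was close to the highest pre-miR-27a array. The fold change was −0.42 (SE 0.13, adjusted p = 0.126). Within replicate numbers the difference was near constant, which gave an SE of 0.05 and an adjusted p of 0.0355 with the block. The other BCL7A probe, A_23_P61826, lies 2267 bases upstream and read 7.34, 7.33 and 7.82 against 7.96, 7.76 and 7.55, an overlapping difference of 0.26 (adjusted p = 0.437) in the other direction. BCL7B was −0.18 and −0.25 on its 2 probes and BCL7C −0.26 on its single probe, and none of these passed the threshold in either fit.

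The ARID1 and DPF subunits belong to cBAF. ARID1A and ARID1B are alternative, DNA-binding subunits, and both are often mutated in cancer or in neurodevelopmental syndromes. The ARID1B probe A_24_P366735, at chr6:157140889-157140948 on the plus strand, read 9.55, 9.61 and 9.35 on pre-control arrays and 8.92, 8.94 and 8.84 on pre-miR-27a arrays. All pre-miR-27a arrays were lower, by −0.60 (SE 0.10, adjusted p = 0.0274), a ratio of 0.659, and this was the largest fall among the 53 kept subunit probes. The brighter ARID1B probe, A_23_P70701, lies 429825 bases downstream and read 9.44, 9.75 and 9.68 against 9.83, 9.91 and 9.71. These groups overlapped, with a fold change of 0.19 (adjusted p = 0.368), so the called difference of ARID1B was that of its upstream probe alone. The 3 probes of ARID1A had fold changes of 0.21, −0.08 and 0.17, with adjusted p from 0.206 to 0.803.

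The DPF proteins read histone acylation through a double PHD finger. DPF2, the broadly expressed member, read 14.88, 14.89 and 14.69 on pre-control arrays and 14.55, 14.46 and 14.40 on pre-miR-27a arrays. The groups were apart, and the fold change of −0.35 (SE 0.09) had an adjusted p of 0.0814, or of 0.046 with the block and 0.0451 with a variance trend and robust estimation. DPF1, a neuronal member, read 7.00, 7.70 and 7.04 against 7.47, 8.46 and 7.51. Replicate 2 was the highest of its group in both transfections, so the groups overlapped while each pre-miR-27a array was above the pre-control array of its number. The fold change was 0.57, with an SE of 0.34 and an adjusted p of 0.37, against 0.09 and 0.042 with the block. DPF3 (BAF45C), known from heart and skeletal muscle, was dim. Its 2 probes had fold changes of −0.52 and 0.00, and the second was missing on pre-control array 1 and well above background on only 1 pre-control array.

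SS18 and its paralogue SS18L1 (CREST) sit in cBAF and ncBAF, and SS18 is the partner of SSX in the fusion protein of synovial sarcoma. The SS18 probe A_23_P141738, at chr18:21850911-21850970 on the minus strand, read 11.40, 11.42 and 11.42 on pre-control arrays and 11.75, 11.88 and 11.78 on pre-miR-27a arrays. The pre-control arrays were nearly equal and all pre-miR-27a arrays were higher. The fold change was 0.39 (SE 0.07, adjusted p = 0.038), or 1.31-fold, and with scaling to the 75th percentile the adjusted p was 0.0509. The upstream SS18 probe A_24_P384851 read 9.47, 9.55 and 9.42 against 9.36, 9.42 and 9.29, and the groups touched (fold change −0.12, adjusted p = 0.416). SS18L1 had fold changes of 0.00 and 0.12 on its 2 probes, and neither was called in either fit.

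The subunits that mark PBAF and ncBAF had no called probe in either fit. ARID2, the DNA-binding subunit of PBAF, read 11.05, 11.20 and 11.07 against 11.28, 11.36 and 11.22 on its brighter probe and 7.56, 7.62 and 7.92 against 7.95, 8.03 and 8.10 on the other. Its groups did not overlap on either probe, and the fold changes were 0.18 (adjusted p = 0.266) and 0.32 (adjusted p = 0.172). PBRM1 (BAF180), which reads acetylated histones with its bromodomains, was 0.11, 0.23 and 0.17 on 3 probes, all with overlapping groups. PHF10 (BAF45A) and BRD7, the other PBAF subunits, had fold changes of 0.00 and −0.01. In ncBAF, the bromodomain subunit BRD9 was at 0.02 (SE 0.08, adjusted p = 0.907), and GLTSCR1 (now BICRA) was at 0.22 (SE 0.09, adjusted p = 0.224) on the probe that was kept.

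The second GLTSCR1 probe, A_24_P31421 at chr19:52897163-52897222, was removed because its spot was not found on 1 array of each group, although it too was well above background on all 6 arrays. Unfiltered, it read 7.75, 7.88 and 7.69 on pre-control arrays and 6.96, 7.07 and 6.90 on pre-miR-27a arrays. The groups were apart, with a fold change of −0.79 (SE 0.09, adjusted p = 0.0187 without the filter), opposite to that of the kept probe. Both removed probes, of SMARCA2 and of GLTSCR1, were also called with the filters on probes well above background and on the positive and significant flag, and in the deposited log2 values.

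The zinc finger proteins BCL11A and BCL11B, known from blood and brain, join BAF complexes in some cell types. BCL11A had 3 probes, and 2 of them had fold changes of 0.15 and 0.02. The third, A_23_P218584, read 5.89, 5.82 and 5.62 on pre-control arrays and 6.37 and 6.93 on pre-miR-27a arrays 1 and 3, with array 2 missing. Both values were higher than all pre-control arrays, and the fold change of 0.87 (SE 0.21) missed the threshold (adjusted p = 0.0786), while without the filter it was 1.00 (adjusted p = 0.0453). This probe was also called with normexp (0.64, adjusted p = 0.0161). It was called too with the filter on probes well above background (0.0228), the positive and significant flag (0.0321) and the deposited values (0.0318). With the block it missed the threshold (adjusted p = 0.15). BCL11B had a fold change of 0.14 (adjusted p = 0.718), and its second probe, removed by the filter, was well above background on no array.

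**Figure D4:**
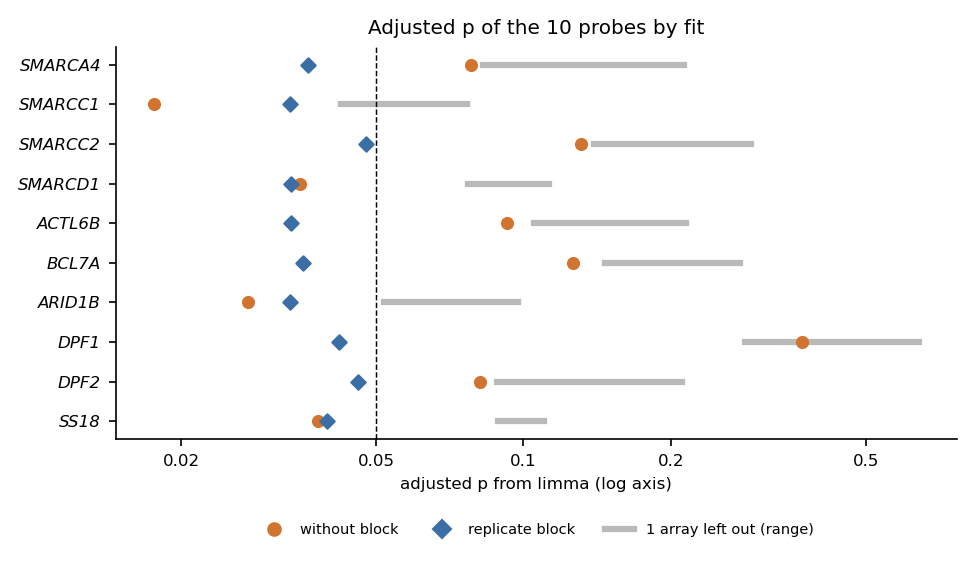
Adjusted p from limma (horizontal axis, log scale, dashed line at the threshold of 0.05) of the 10 subunit probes called in either fit, without the block (orange circles), with the replicate block (blue diamonds) and with 1 array left out in turn (grey bars, range over the 6 omissions). 4 probes lie under 0.05 without the block and all 10 with it, and only the bar of SMARCC1 crosses the line. The omissions were fitted without the block.

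For several genes the answer depended on the probe. 16 genes had more than 1 kept probe, which gave 23 pairs of the brightest probe with another probe of its gene. In 10 pairs (43.5%), from 8 genes, the 2 fold changes had opposite signs, against 37.3% of 9092 such pairs over the whole array, and some of these had a value close to 0, as for ACTB, DPF3 and SS18L1. The difference between the probes was computed on each array and compared between groups. In 9 pairs (39.1%, against 42.9% of all pairs) these differences did not overlap: SMARCA4, SMARCC1, SMARCC2, SMARCD1, BCL7A, ARID1A, ARID1B, SS18 and BCL11A had 1 such pair each. Both shares lay near those of the array.

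limma on the differences of all pairs, a fit added after the data were seen, called 5 of the 23 pairs (21.7%), against 16.3% of all pairs. They were SMARCC1 (−1.07, brightest minus other, SE 0.11, adjusted p = 0.00793), ARID1B (0.79, SE 0.12, adjusted p = 0.015), SMARCC2 with its downstream probe (−0.61, SE 0.09, adjusted p = 0.0143), SS18 (0.51, SE 0.07, adjusted p = 0.0117) and SMARCA4 with its upstream probe (−0.38, SE 0.08, adjusted p = 0.0281). In these genes the difference between groups was unequal between the probes. With the replicate block 5 pairs were again called, against 15.7% of all pairs, and they were those of the same genes, with adjusted p from 0.0285 (SMARCC1) to 0.0458 (SMARCC2). The pairs of SMARCD1 (−0.38, adjusted p = 0.0929), BCL7A (−0.68, adjusted p = 0.0802) and BCL11A (−0.77, over 5 arrays, adjusted p = 0.101) missed the threshold. The exact permutation test of 3 arrays against 3 cannot go below a two-sided p of 0.1, and adjusted over the 23 pairs its smallest value was 0.288.

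Neither end of the genes was lower throughout. Between the most upstream and the most downstream kept probe, the downstream one had the lower fold change in 9 genes and the higher one in 7. SMARCC1, BCL11A and BCL7A were among the former, and ARID1B, SS18 and SMARCC2 among the latter. Which exons or transcripts the probes meet was not looked up, as the positions are those of hg18 and no annotation of that build was used here.

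**Figure D5:**
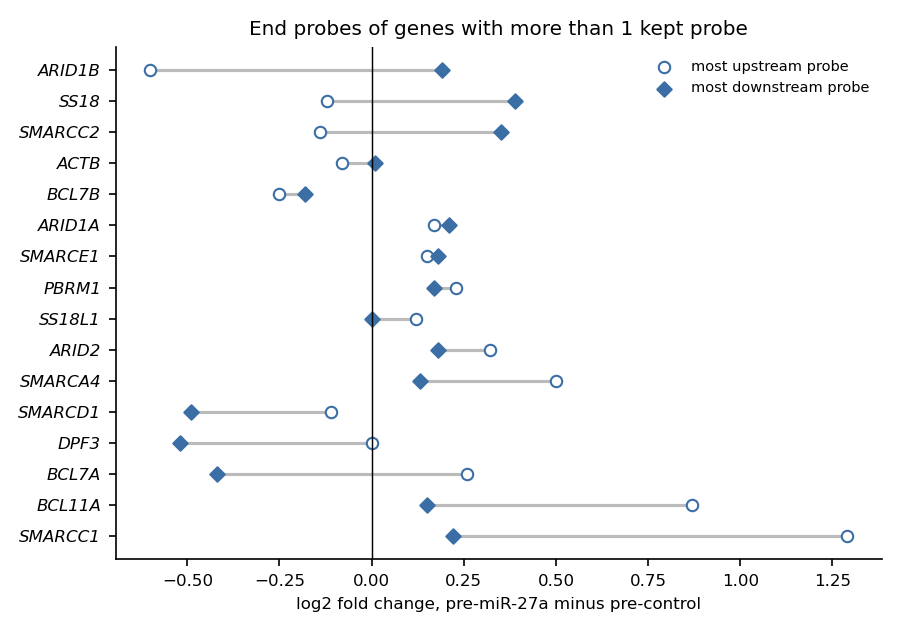
Log2 fold change (horizontal axis, pre-miR-27a minus pre-control) of the most upstream (open circles) and most downstream (filled diamonds) kept probe of the 16 genes with more than 1 kept probe, ordered by their difference. The downstream probe is lower in 9 genes, with SMARCC1 at the bottom, and higher in 7, with ARID1B at the top.

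When all probes of a gene measured on all 6 arrays were averaged before the fit, 1 subunit gene was called, against 7.97% of 23929 gene names. It was SMARCC1, at 0.76 (SE 0.08, adjusted p = 0.0191). SMARCD1 was then at −0.30 (adjusted p = 0.123), SS18 at 0.13 (adjusted p = 0.327) and ARID1B at −0.21 (adjusted p = 0.227). With the replicate block 2 genes were higher (SMARCC1 and DPF1) and 3 lower (SMARCD1, ACTL6B and DPF2), against 19.4% of all gene names. SMARCD1 was thus called as a mean of probes only with the block (adjusted p = 0.0419), and SS18 and ARID1B in neither fit (0.14 and 0.0876 with the block). SMARCD1, SS18, BCL7A and PBRM1 are also on the study's list of predicted targets. That list was restricted to genes that the study's significance analysis of microarrays (SAM) called changed on these same arrays. Their place on it is thus not independent evidence of a direction. Here no PBRM1 probe was called in either fit, and a BCL7A probe was called only with the block. The source of this difference from the study was not tested. In the paper's luciferase assays, done in another cell line, miR-27a did not significantly repress a reporter carrying part of the untranslated end of the BCL7A mRNA.

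The other ATP-dependent remodellers were set beside the subunits. Of 53 listed genes of the ISWI, CHD/NuRD, INO80, SRCAP and TIP60-p400 families and of other SNF2-type ATPases, 52 were found, with 77 kept probes. 13 of these probes (16.9%) were called, against 7.83% of all probes, 8 higher and 5 lower. With the replicate block 14 were called (18.2%), against 14.9% of all probes, so the excess over the array was smaller in that fit. Their median fold change was 0.03, close to the 0.02 of the subunits. A test of the difference between the 2 lists was not run, and the probe counts of both are small.

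The calls were spread over several families. CHD6, a chromodomain remodeller, was higher by 1.25 (SE 0.18, adjusted p = 0.0235) on 1 probe and at 0.25 (adjusted p = 0.29) on the other. RSF1, the histone-binding partner of SMARCA5, was higher on 2 of its 3 probes, by 1.17 (adjusted p = 0.0176) and 0.88 (adjusted p = 0.0432). BPTF, the largest subunit of the NURF complex, was higher by 1.13 (adjusted p = 0.0216) on 1 probe and at −0.39 (adjusted p = 0.0687) on the other. Fitted with the replicate block, these BPTF probes were called in opposite directions (adjusted p = 0.0348 for the higher and 0.0412 for the lower). ATRX, which deposits histone H3.3 with DAXX, was higher by 0.81 (adjusted p = 0.0212, with pre-control array 1 missing) on 1 probe and at −0.37 (adjusted p = 0.051) and 0.14 (adjusted p = 0.587) on its others. On the lower side were MTA2 (−0.53, adjusted p = 0.0346) and MTA1 (−0.49, adjusted p = 0.0402) of NuRD, DMAP1 (−0.50, adjusted p = 0.0323) of TIP60-p400, CECR2 (−0.48, adjusted p = 0.022), which pairs with ISWI ATPases, and SRCAP (−0.41, adjusted p = 0.0366), the ATPase that loads H2A.Z. The other probes of MTA1 were at 0.23 and −0.12, and the other of DMAP1 at −0.35, none called. With the replicate block, the second RSF1 probe and the MTA1 probe missed the threshold (adjusted p = 0.0642 and 0.0573). RSF1, BPTF, ATRX and CECR2 are on the study's own list as well.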

How the data were processed

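Total RNA of 6 RH36 cultures was labelled with Cy3 and hybridized to 1-colour arrays (n = 3 per group). The authors deposited the processed spot intensity from Feature Extraction 10.5.1.1, which is background-subtracted within an array, and other flags for each spot. Their log2 values, deposited as a second file, had a median difference of 0.00425 from those used here. Per-sample columns left unused numbered 0.

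Processed intensities were taken to log2 and quantile normalized, not-found spots became missing, spots of a probe were averaged, and a probe was kept with at most 1 missing array. All 36469 kept probes were fitted with limma 3.58.1 in R 4.3.3, after reading with the data.table package (version 1.17.8). P-values were adjusted over them by Benjamini-Hochberg, and a call is an adjusted p under 0.05. The study's SAM, which its results describe as paired, was not repeated. The fits were also run on simulated data with independent noise for each array. Those data held no slide or replicate effect, so the run could not check how the fits handle either. The number of arrays limits the precision, and the median standard error was 0.14.

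Arrays that share a number correlated, in their deviations from the group mean, at 0.40, 0.46 and 0.41 over 31717 probes, against −0.27 to −0.12 between numbers. The replicate numbers of the labels were therefore taken to pair the arrays. The slide, which differs between the groups throughout, could not enter a fit.

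Members and lists were chosen with earlier results of these data known. Every member is reported. Array values are given for genes called in either fit, both ATPases and the study's listed genes SMARCD1 and BCL7A. They are also given for some further members whose groups did not overlap or whose probes were removed, chosen after their values were seen. Groups did not overlap either for SMARCE1, BCL7C, the brightest ARID1A probe and the kept GLTSCR1 probe, whose array values are not given. Of the other members on the study's list, SS18 was called and PBRM1 is given by fold change alone. Array values of ACTL6A, whose groups overlapped, are given as well. Other remodellers are named by the 5 largest rises and 5 largest falls among called probes without overlap. Alternatives were 75th percentile scaling, normexp (offset 50), other filters and flags, the deposited values, outlier spots left out, a variance trend with robust estimation, the replicate block and omission of each array. The mean of a gene's probes and the fit on differences between probes of a gene were added after the data were seen. Probe positions are those of the files (hg18).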

Additional observations from a re-analysis of the deposited data

How the results depend on the processing

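Of the 2 higher and 2 lower subunit probes, the higher count was 1 with scaling to the 75th percentile, and 4 with normexp, without the filter on dim probes, with the filter on probes well above background, with the positive and significant flag and with the deposited values. The lower count was 3 in each of these settings but normexp, where it was 2, and it was also 3 with the variance trend. Both counts were 5 with the replicate block, which pairs the arrays. Leaving out 1 array, in the fit without the block, gave 0 to 1 higher and 0 lower. Of the other remodellers, 8 higher became 0 to 4 and 5 lower became 0 when 1 array was left out, and the lower count was 8 with normexp, 8 with the filter on probes well above background and 10 with the variance trend. SMARCA4 turned to −0.07 (A_23_P39034) and −0.09 (A_23_P39040) with the 75th percentile, and the latter to 0.00 with normexp, −0.05 without pre-control replicate 2 and −0.02 without pre-miR-27a replicate 1, in a range of −0.05 to 0.10 with 1 array left out. ARID1B, 0.19 on its brighter probe, was −0.21 as a mean of probes. The causes were not tested. The median of the subunit probes ranged from −0.04 to 0.07. Called probes of the whole array ranged from 0 with an array left out to 5421 with the block, against 2856. The calls of SMARCC1, ARID1B and SMARCD1 held in all 9 alternatives that kept every array, and that of SS18 in 8 of 9, not with the 75th percentile (adjusted p = 0.0509, limma).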
